A study of Homo sapiens with 6 samples.

Results

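The 10 aldo-keto reductase genes AKR1C1, AKR1C2, AKR1C3, AKR1C4, AKR1B1, AKR1B10, AKR1B15, AKR1A1, AKR7A2 and AKR7A3 were taken by symbol from a table of 23354 genes measured by RNA sequencing in LNCaP, a human prostate cancer cell line whose growth responds to androgens. All 10 were in the table, and 6 of them passed the filter on low counts, as did 13466 genes in all. Libraries 1 to 3 of the DHT+WBM group came from cells given the androgen dihydrotestosterone (DHT) at 1 nM with 3 µL/mL of an extract of white button mushroom (WBM), and libraries 1 to 3 of the DHT group from cells given DHT at 1 nM alone, both for 48 h. Every library therefore carried DHT, and the labels do not state whether the DHT group received a vehicle in place of the extract. The labels call the libraries triplicates of one cell line without saying that they were separate cultures, so p-values reflect how far these libraries varied, and part of that may be technical. The values cover 1 cell line, and no library without DHT was analysed here.

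Aldo-keto reductases are cytosolic enzymes that use NADPH to turn aldehydes and ketones into alcohols. The AKR1C enzymes act on steroids and prostaglandins: in the prostate AKR1C2 and AKR1C1 reduce DHT to weaker metabolites, whereas AKR1C3 makes testosterone from a weak precursor. The AKR1B enzymes reduce glucose, retinal and lipid aldehydes, AKR1A1 is the general aldehyde reductase, and the AKR7A enzymes reduce aflatoxin dialdehyde and succinic semialdehyde. Several family members are textbook targets of NRF2, a transcription factor activated by electrophiles.

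Libraries held 19127357 to 21490953 counts, which puts 3 counts, the floor used here for a gene at 0, at 0.138 to 0.154 CPM, the unit used throughout (read counts set to equal library sizes after TMM scaling). The 9 luminal prostate markers checked, such as KLK3 and FOLH1, summed to 2926 to 3008 CPM in DHT+WBM and 4361 to 4572 CPM in DHT, with 5 of them lower and 1 higher by the test, beside 29.0% of all tested genes lower and 29.2% higher. Of 4 immune markers 2 passed the filter and both were higher, and the sum of the 4 was 84.0 to 92.4 CPM in DHT+WBM against 23.8 to 26.0 CPM in DHT, most of it the lysosomal gene CD68. PTPRC and CD3E, which mark leukocytes and T cells, stayed at or under 0.0514 CPM in every library. The 3 neuroendocrine markers summed to 16.6 to 20.4 CPM in DHT+WBM and 7.60 to 8.17 CPM in DHT, mostly from ENO2, while CHGA was at 0 in every DHT+WBM library. Of the basal epithelium markers none passed the filter. Of 5 tested markers of stroma, endothelium and liver 2 were lower and none was higher, and KRT5, COL1A2 and CDH5 were at 0 throughout. The part of these shifts in the results was not tested.

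The AKR1C genes are copies that lie side by side on chromosome 10. Their first coding bases are shown because they make plain why reads of single members are uncertain. The sequences come from GENCODE transcripts (GRCh38), 84 bases from the start codon, with capitals marking each base that differs from AKR1C1.
AKR1C1: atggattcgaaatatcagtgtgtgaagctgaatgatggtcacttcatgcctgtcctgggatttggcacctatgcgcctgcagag
AKR1C2: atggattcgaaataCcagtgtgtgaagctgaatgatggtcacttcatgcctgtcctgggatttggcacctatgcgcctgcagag
AKR1C3: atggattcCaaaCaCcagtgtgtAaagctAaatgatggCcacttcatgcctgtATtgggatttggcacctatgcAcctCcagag
AKR1C4: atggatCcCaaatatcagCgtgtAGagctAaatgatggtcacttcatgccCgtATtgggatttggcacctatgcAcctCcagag
In this stretch AKR1C2 differs from AKR1C1 at 1 base, AKR1C3 at 10 and AKR1C4 at 11. Over the whole coding sequence of 972 bases, aligned end to end, AKR1C1 and AKR1C2 were 98.0% identical, AKR1C1 and AKR1C3 91.7%, and AKR1C1 and AKR1C4 88.9%. Of all 50-base windows in the AKR1C1 coding sequence, 51.8% occurred unaltered in a GENCODE transcript of AKR1C2 and 14.6% in one of AKR1C3. For 100-base windows the shares were 19.1% with AKR1C2 and 2.176% with AKR1C3. The read length is not given in the sources used here. The untranslated ends of AKR1C1, whose own windows were not searched for, also carry reads.

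In the annotation behind the counts (hg19) the spans overlap as well. AKR1C1 covered chr10:4934796-5020158 and AKR1C3 chr10:5005454-5149878 on the plus strand, so the end of AKR1C1 and the start of AKR1C3 overlapped, and AKR1C2, at chr10:5029968-5060225 on the minus strand, lay within the AKR1C3 span. AKR1C4 covered chr10:5238798-5260910 on the plus strand and overlapped no other gene. Whether counting used strand is not given, so reads were described both for single genes and for the sum of the 4 genes. The sum does not depend on how counted reads were split among them. The treatment of reads that match several copies is not given either, and any left uncounted would be missing from the sum too.

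AKR1C transcripts were far more abundant with the extract than with DHT alone. AKR1C1, which inactivates progesterone and reduces DHT, had 64.1, 67.1 and 66.7 CPM in DHT+WBM libraries 1 to 3, against 2.53, 2.92 and 2.73 CPM in DHT libraries 1 to 3. Every DHT+WBM library lay far above every DHT library. The mean was 65.9 ± 1.66 CPM in DHT+WBM and 2.73 ± 0.194 CPM in DHT (SD, n = 3 each), with a log2 fold change of 4.59 ± 0.08 (SE; quasi-likelihood test of edgeR, Benjamini-Hochberg adjusted p over all tested genes = 2.61e-34). In RNA from whole cultures, more RNA per cell and more cells that express a gene cannot be told apart.

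AKR1C2, the main enzyme that reduces DHT to a weak androgen, followed AKR1C1 closely. It had 60.9, 62.8 and 62.7 CPM in DHT+WBM, against 2.44, 2.77 and 2.44 CPM in DHT, or 4.61 ± 0.08 as a log2 fold change (edgeR adjusted p = 3.55e-34). This was the largest log2 fold change of the 13466 tested genes, and that of AKR1C1 was the next. AKR1C3, which makes active androgens and prostaglandin F, had 35.7, 38.3 and 39.6 CPM in DHT+WBM, against 2.48, 3.47 and 2.78 CPM in DHT. On the log2 scale it rose by 3.70 ± 0.09 (edgeR adjusted p = 7.02e-29), the 4th among all tested genes, and again no library of the groups overlapped.

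AKR1C4, chiefly a liver enzyme of steroid and bile acid metabolism, stayed near the limit of detection. It had 1, 1 and 3 counts in DHT+WBM and 1, 0 and 0 counts in DHT, too few to pass the filter. The ratio of the summed counts per depth was 4.97, with an exact 95% interval from counting of 0.556 to 235, which holds both no change and one as large as that of its neighbours, so a change was not detectable at this depth.

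Summed over the 4 genes, AKR1C reads came to 160.7, 168 and 169 CPM in DHT+WBM, against 7.50, 9.16 and 7.95 CPM in DHT. The sum rose 20.3-fold, or by 4.34 ± 0.06 on the log2 scale (edgeR adjusted p = 1.30e-37). In counts, the 3 DHT+WBM libraries together held 10245 AKR1C reads and the 3 DHT libraries 502.

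**Figure D1:**
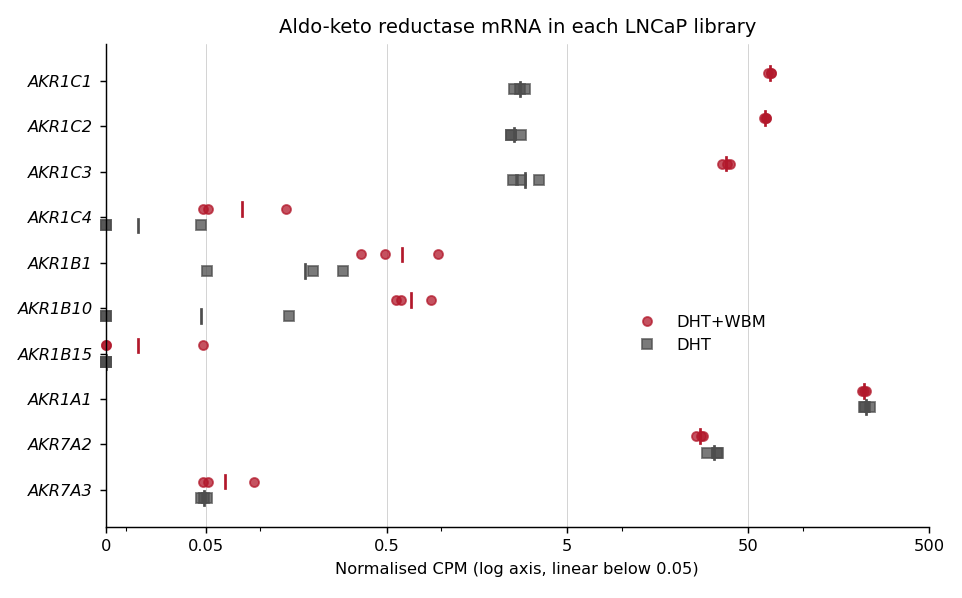
Normalised CPM of each of the 10 genes (x axis, logarithmic above 0.05 CPM and linear below it) in the 3 DHT+WBM libraries (circles) and the 3 DHT libraries (squares), with a vertical bar at each group mean. AKR1C1, AKR1C2 and AKR1C3 lie between 35.7 and 67.1 CPM in DHT+WBM and between 2.44 and 3.47 CPM in DHT, AKR1A1 lies between 213 and 235 CPM in all 6, and AKR1C4, AKR1B15 and AKR7A3 stay at or below 0.138 CPM.

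The AKR1C reads were split differently among the genes in the libraries of each group, with relatively fewer for AKR1C3 in DHT+WBM. AKR1C1 took 39.9, 39.9 and 39.4% of the summed AKR1C reads in DHT+WBM, against 33.8, 31.9 and 34.4% in DHT. For AKR1C3 the shares were 22.2, 22.8 and 23.4% in DHT+WBM, against 33.1, 37.9 and 35.0% in DHT. The share of AKR1C3 was thus lower in every DHT+WBM library than in any DHT library, and exact 95% binomial intervals ran from 20.8 to 24.8% over the DHT+WBM libraries and from 25.8 to 45.4% over the DHT libraries, covering counting error only. On average the AKR1C3 share was 22.8 ± 0.607% in DHT+WBM and 35.3 ± 2.42% in DHT (SD, n = 3 each), a difference of -12.5 percentage points.

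By an exact two-sided permutation test over the 6 libraries the AKR1C3 difference had p = 0.1, the smallest that 3 against 3 libraries allow, and an adjusted p of 0.133 over the 4 paralogs, so this design cannot reach 0.05. The AKR1C2 share was 37.4 ± 0.425% in DHT+WBM and 31.1 ± 1.20% in DHT, a difference of 6.30 points at the same p, and that of AKR1C1 differed by 6.40 points. AKR1C2 and AKR1C1 kept nearly equal counts throughout, with 93.6 to 95.1 AKR1C2 reads per 100 AKR1C1 reads in DHT+WBM and 89.3 to 96.2 in DHT. AKR1C3 had 28.6 to 30.6 reads per 100 reads of AKR1C1 and AKR1C2 together in DHT+WBM and 50 to 61.1 in DHT. A read of a shared stretch credited to another copy, or left uncounted, would move these shares, and that part was not tested.

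**Figure D2:**
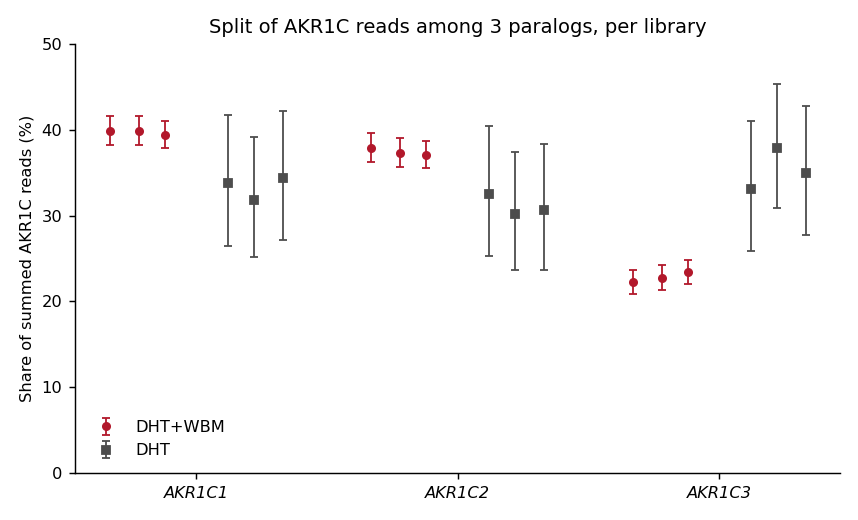
Share of the summed AKR1C reads (y axis, percent) that each library gave to AKR1C1, AKR1C2 and AKR1C3, with DHT+WBM libraries as circles and DHT libraries as squares; bars are exact 95% binomial intervals. AKR1C3 sits at 22.2 to 23.4% in DHT+WBM and 33.1 to 37.9% in DHT, while AKR1C1 and AKR1C2 sit higher in DHT+WBM.

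For AKR1C1, AKR1C2 and AKR1C3, which rose, and for AKR1C4, where a change was not detectable, the 250 bases before each start are shown. They are from RefSeq (GRCh38.p14), 5′ to 3′ along the gene, and capitals mark a CCAAT box (CCAAT, searched on both strands, so that it reads ATTGG on the other strand). AKR1C1 is at chr10:4963165-4963414 on the plus strand, AKR1C2 at chr10:5003858-5004107 on the minus strand, AKR1C3 at chr10:5094164-5094413 and AKR1C4 at chr10:5196587-5196836, both on the plus strand. RefSeq gives AKR1C3 a further start upstream, whose window at chr10:5048531-5048780 is on the last line.
AKR1C1: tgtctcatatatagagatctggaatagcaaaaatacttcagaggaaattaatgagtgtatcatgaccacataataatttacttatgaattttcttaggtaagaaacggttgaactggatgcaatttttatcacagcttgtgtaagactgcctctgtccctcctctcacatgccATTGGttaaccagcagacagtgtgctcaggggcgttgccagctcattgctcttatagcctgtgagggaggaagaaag
AKR1C2: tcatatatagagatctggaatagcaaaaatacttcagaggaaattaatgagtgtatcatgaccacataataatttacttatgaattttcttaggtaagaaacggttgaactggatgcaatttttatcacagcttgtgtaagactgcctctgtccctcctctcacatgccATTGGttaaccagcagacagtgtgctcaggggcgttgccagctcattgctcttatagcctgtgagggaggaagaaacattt
AKR1C3: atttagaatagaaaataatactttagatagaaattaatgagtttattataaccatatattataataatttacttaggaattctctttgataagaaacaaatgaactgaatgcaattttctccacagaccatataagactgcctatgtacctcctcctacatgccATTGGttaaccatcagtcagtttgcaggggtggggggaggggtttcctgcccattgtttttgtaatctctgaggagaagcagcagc
AKR1C4: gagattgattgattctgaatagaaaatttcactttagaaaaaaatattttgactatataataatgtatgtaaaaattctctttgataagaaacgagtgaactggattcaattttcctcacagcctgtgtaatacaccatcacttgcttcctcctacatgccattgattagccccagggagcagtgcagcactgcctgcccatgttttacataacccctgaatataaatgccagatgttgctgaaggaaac
AKR1C3, upstream start: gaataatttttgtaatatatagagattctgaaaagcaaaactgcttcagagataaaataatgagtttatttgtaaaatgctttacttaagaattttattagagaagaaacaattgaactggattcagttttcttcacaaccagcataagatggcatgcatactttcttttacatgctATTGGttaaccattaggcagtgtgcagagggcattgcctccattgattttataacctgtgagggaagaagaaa
The AKR1C1 and AKR1C2 windows were 96.5% identical in an end-to-end alignment. AKR1C1 was 69.9% identical to the AKR1C3 window, 72.4% to that of the upstream AKR1C3 start, 64.0% to AKR1C4 and 47.6% to AKR1A1.

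Counted from the start of transcription, a CCAAT box began at -77 for AKR1C1, at -81 for AKR1C2 and at -86 for AKR1C3 and at -73 for its upstream start, and the AKR1C4 window held none. Of 35116 RefSeq windows of this length, 32.0% held such a box. The core of the antioxidant response element that NRF2 binds (TGACNNNGC, both strands) was in none of the 5 AKR1C windows and in 10.9% of all windows. The core of the xenobiotic response element of the aryl hydrocarbon receptor (GCGTG, both strands) and a core of the androgen response element (AGAACA, both strands) were in none of them either, with 32.2% and 12.4% of all windows holding them. A TGACNNNGC match can share its last letters with GCGTG, and letters missing from a short window say nothing of more distant sites. A link between these letters and the rise was not tested. Of the 10 genes, 8 had a RefSeq window. Outside AKR1C, a CCAAT box began at -98 in the AKR1B1 window at chr7:134459101-134459350 (GRCh38.p14). The other AKR1B1 window and those of AKR1A1, AKR7A2 and AKR7A3 held none. GCGTG was in the AKR1B1, AKR7A2 and AKR7A3 windows, and TGACNNNGC in those of AKR7A2 alone.

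The AKR1B genes were rare in both groups, and AKR1B10 and the sum of these genes were higher with the extract. AKR1B10 (chr7:134212344-134226166, plus strand, hg19), a retinal and lipid aldehyde reductase known from intestine and some tumours, had 18, 11 and 13 counts in DHT+WBM, against 3, 0 and 0 counts in DHT. Every DHT+WBM library was above every DHT library. The ratio of the summed counts per depth was 13.9, with an exact 95% interval from counting of 4.45 to 70.2, and the edgeR adjusted p was 4.85e-06. AKR1B10 passed the filter through its DHT+WBM counts alone, and its level there was 0.680 ± 0.172 CPM against 0.0478 ± 0.0827 CPM in DHT (SD, n = 3 each).

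AKR1B1, the aldose reductase that turns glucose into sorbitol, sits beside it on the minus strand (chr7:134127107-134143888). It had 10, 7 and 21 counts in DHT+WBM and 6, 1 and 4 counts in DHT, and did not pass the filter. Its lowest DHT+WBM library was above its highest DHT library by a single count. The ratio of sums was 3.43, with an exact 95% interval from counting of 1.72 to 7.45. Fitted without the filter its log2 value was 1.73 (edgeR adjusted p = 0.00179). AKR1B15 (chr7:134233849-134264592, plus strand), the closest relative of AKR1B10 with 86.5% identity in coding sequence, had 1 count in DHT+WBM library 1 and 0 in the others, so no ratio is given.

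Summed over the 3 AKR1B genes, reads were 1.41, 0.924 and 1.57 CPM in DHT+WBM, against 0.430, 0.0503 and 0.195 CPM in DHT. The groups did not overlap. On the log2 scale the sum rose by 2.49 ± 0.39 (edgeR adjusted p = 9.28e-07), on 81 counts in DHT+WBM and 14 in DHT. Like AKR1B10, the sum passed the filter through its DHT+WBM counts alone, so its entry to the test depended on the group where it was high. Its size rested on single libraries, being 3.34 on the log2 scale without DHT replicate 1 and 2.04 without DHT replicate 2. AKR1B1 shared no 50-base coding window with any other member, and 19.7% of the AKR1B10 windows were found in AKR1B15, so the split touches the AKR1B10 and AKR1B15 pair, whose sum gave a log2 fold change of 3.68 ± 0.62. With single libraries left out that value ran from 3.14 to 6.84, the highest without DHT replicate 1, where the other DHT libraries hold no read of the pair and the fitted value depends on the prior count.

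AKR1A1 (chr1:46016455-46035723, plus strand), the aldehyde reductase that also handles glucuronate, was the most abundant member. It had 225, 213 and 217 CPM in DHT+WBM, against 222, 219 and 235 CPM in DHT, and the groups overlapped. Its log2 fold change was -0.05 ± 0.04 (edgeR adjusted p = 0.333), and with library totals as the sole scaling it was 0.0015, so it has no settled direction.

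AKR7A2 (chr1:19629202-19638640, minus strand), which reduces succinic semialdehyde, was the single member that fell. It had 27.4, 25.8 and 28.0 CPM in DHT+WBM, against 29.6, 33.5 and 34.1 CPM in DHT. All 3 DHT+WBM libraries were below all 3 DHT libraries, although DHT+WBM library 3 and DHT library 1 were close. The log2 fold change was -0.25 ± 0.06, or 1.19-fold lower (edgeR adjusted p = 0.000697). AKR7A3 (chr1:19609057-19615280, minus strand), its neighbour in aflatoxin aldehyde reduction, had 1, 1 and 2 counts in DHT+WBM and 1 count in each DHT library. Adding it to AKR7A2 left the log2 fold change at -0.25. The RefSeq windows before AKR7A2 starts (GRCh38.p14, chr1:19312145-19312394 and chr1:19312147-19312396) overlap almost wholly. They held the same 3 matches to the antioxidant response element core searched above, and 1 match to the xenobiotic response element core.

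Among the 6 members that passed the filter the test called 4 higher and 1 lower, and AKR1A1 was not called. Calls were common in this comparison, at 58.2% of all tested genes in either direction, 29.2% higher and 29.0% lower, so the number of members called says little by itself. All 3 DHT+WBM libraries were above all 3 DHT libraries for 31.1% of tested genes and below them for 31.1%. By size, 7 of all tested genes (0.0520%) passed the test with a rise of at least 10-fold, and 4 of the 7 were AKR1C2, AKR1C1, AKR1C3 and AKR1B10. The other 3 were the pseudogene TREML3P, UGT1A6, which glucuronidates phenols, and the aldehyde dehydrogenase ALDH3A1, none above 3.81 CPM in DHT+WBM. AKR1B10, TREML3P and UGT1A6 averaged 0.0478, 0.0336 and 0.0481 CPM in DHT, under the floor of 3 counts, so their fitted sizes are loose. They and ALDH3A1 passed the filter through their DHT+WBM counts alone. The members were chosen with these results in view, so the count is a description. The median log2 fold change of the 6 was 3.67, beside 0.0029 for all tested genes, and AKR1B10 entered that median because it was high in DHT+WBM.

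The make-up of the family's reads differed between the groups. All 10 genes together had 415, 408 and 416 CPM in DHT+WBM, against 260, 262 and 278 CPM in DHT. The difference of the means was 147 CPM for the family, made of 158 CPM from AKR1C, 1.08 CPM from AKR1B, -6.95 CPM from AKR1A1 and -5.25 CPM from AKR7A. AKR1C genes held 40.2 ± 1.31% of the family's reads in DHT+WBM and 3.08 ± 0.363% in DHT (SD, n = 3 each). AKR1A1 held 52.9 ± 1.20% in DHT+WBM and 84.7 ± 0.949% in DHT, and AKR7A 6.58 ± 0.212% in DHT+WBM and 12.2 ± 0.716% in DHT.

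**Figure D3:**
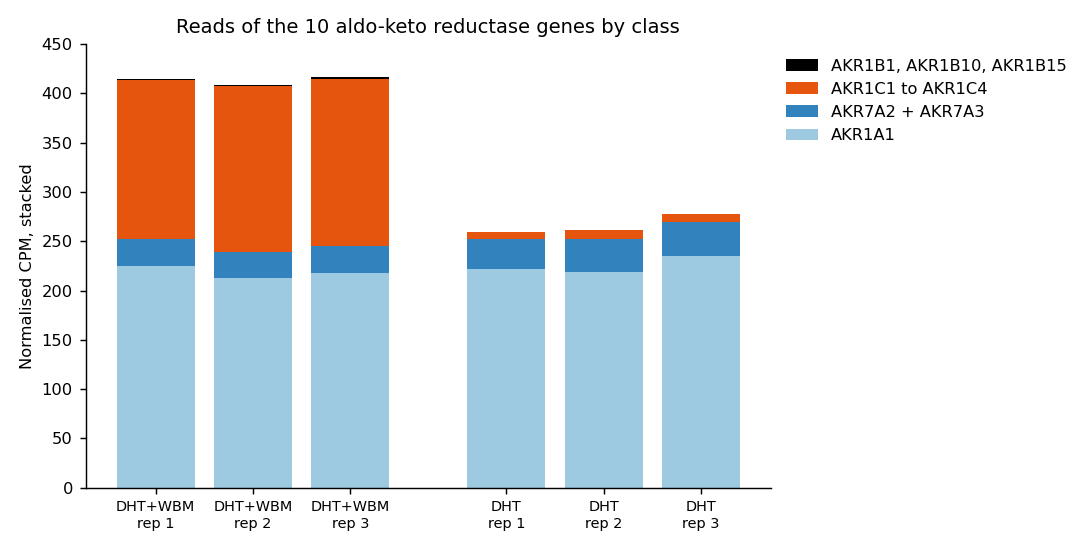
Stacked bars of normalised CPM for AKR1A1, the AKR7A pair, the 4 AKR1C genes and the 3 AKR1B genes in each library, DHT+WBM libraries on the left and DHT libraries on the right. The AKR1C layer is 160.7 to 169 CPM in DHT+WBM and 7.50 to 9.16 CPM in DHT, while the AKR1A1 layer is 213 to 225 CPM in DHT+WBM and 219 to 235 CPM in DHT.

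Levels of different genes were compared per kilobase of the deposited gene length, in CPM per kb. In DHT+WBM the order was AKR1A1 at 109 ± 3.11, AKR1C1 at 23.4 ± 0.587, AKR1C2 at 14.99 ± 0.259, AKR1C3 at 14.6 ± 0.768 and AKR7A2 at 8.94 ± 0.377 (SD, n = 3). AKR1C2 and AKR1C3 did not differ beyond their spread, and AKR1B1 at 0.436 ± 0.231 and AKR1B10 at 0.429 ± 0.108 did not either. The order among the AKR1C genes rests on their deposited lengths, 2.823 kb for AKR1C1, 4.143 kb for AKR1C2 and 2.599 kb for AKR1C3. Before division by length AKR1C1 and AKR1C2 were close, at 65.9 and 62.1 CPM in DHT+WBM. In DHT the order was AKR1A1 at 113 ± 4.41, AKR7A2 at 10.7 ± 0.809, AKR1C3 at 1.12 ± 0.195, AKR1C1 at 0.966 ± 0.0688 and AKR1C2 at 0.615 ± 0.0462, with AKR1C3 and AKR1C1 within their spread of each other. Per kilobase AKR1C1, AKR1C2 and AKR1C3 were all above AKR7A2 in DHT+WBM and all below it in DHT. Of all tested genes, 23.5% had a higher level per kb than AKR1C1 in DHT+WBM and 83.7% in DHT. For AKR1A1 these shares were 3.76% in DHT+WBM and 3.85% in DHT.

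The genes most like the summed AKR1C row were found by distance over the 6 libraries, on log2 CPM centred for each gene, among 10732 genes with a mean of at least 5 CPM. The nearest was CYP1A1, a cytochrome P450 of aromatic compounds, at a distance of 1.77. SERPINB7, a protease inhibitor, followed at 2.17, HMOX1, heme oxygenase, at 2.26, DIO3, a thyroid hormone deiodinase, at 2.65, and SYTL2, a vesicle trafficking protein, at 2.97. Their log2 fold changes of 2.94, 2.64, 2.51, 2.21 and 1.91 were all below the 4.34 of the AKR1C sum. The order by distance was also the order of these values, so the distance largely reflected the size of the rise. Shared regulation was not tested. AKR1B1 did not pass the filter, so no such search was read for it.

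Lists of related genes were read beside the 29.2% of all tested genes called higher, the 29.0% called lower and their median log2 fold change of 0.0029. Most other aldo-keto reductase genes had too few reads, and 2 of the 6 listed passed the filter. KCNAB2, a potassium channel beta subunit with an aldo-keto reductase fold, rose to 23.8 ± 0.286 CPM in DHT+WBM against 19.1 ± 0.465 CPM in DHT, a log2 fold change of 0.32 ± 0.07. By edgeR 0 of the 2 fell. AKR1D1, the liver enzyme that reduces the steroid A ring, had a log2 fold change of -0.70 ± 0.33 at 0.519 CPM in DHT+WBM and 0.848 CPM in DHT. It was lower at an unadjusted p under 0.05 and not after adjustment (edgeR adjusted p = 0.0646), and DESeq2 and limma-voom called 0 lower as well. Without the filter on low counts 1 gene of the list was called lower, KCNAB3, another potassium channel beta subunit, at -1.62 on the log2 scale (edgeR adjusted p = 0.0306), with 0.114 CPM in DHT+WBM and 0.356 CPM in DHT and overlapping groups.

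Other carbonyl and quinone reductases share substrates with the family but not its fold. By the test 7 of 16 measured genes were higher, 4 were lower and 5 had no call; the median log2 value was 0.23. PTGR1, which reduces prostaglandin and leukotriene ketones, rose to 185 ± 5.91 CPM in DHT+WBM against 74.5 ± 4.07 CPM in DHT, a log2 fold change of 1.31 ± 0.04. NQO1, the NRF2-induced quinone reductase, had the largest log2 fold change of the list, at 1.89 ± 0.04. The retinal reductase RDH11 fell to 446 ± 10.4 CPM in DHT+WBM against 638 ± 17.7 CPM in DHT. DHRS11 fell by 0.35 on the log2 scale. RDH10 and RDH13 fell by 0.17 and 0.23, and these calls were lost with upper-quartile factors, library totals, DESeq2, a stricter adjusted p of 0.01, without DHT replicate 1 or without DHT+WBM replicate 2, where 2 of the list were lower. RDH10 was also lost without DHT replicate 2 or DHT+WBM replicate 3.

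Other enzymes of androgen reduction, oxidation and conjugation were either higher or without a call. Here 10 of 17 measured genes were higher, 0 lower and 7 without a call, at a median log2 value of 0.37. Of the 10, UGT2B7, at 0.919 CPM in DHT+WBM and 0.406 CPM in DHT, passed the filter through its DHT+WBM counts alone. With the 1 CPM filter 9 of the list were higher. The count of 0 lower was the same at an unadjusted p under 0.05, by DESeq2 and by limma-voom. UGT2B10, a glucuronosyltransferase, rose to 9.24 ± 0.905 CPM in DHT+WBM against 3.92 ± 0.130 CPM in DHT, a log2 fold change of 1.24 ± 0.11, and UGT2B15, which glucuronidates DHT and its metabolites, had 0.81 ± 0.05. These are copies of each other, so their split is uncertain. HSD17B6, which oxidises the metabolite made by AKR1C2 back to DHT, rose to 10.9 ± 0.594 CPM in DHT+WBM against 5.66 ± 0.184 CPM in DHT, a log2 fold change of 0.95 ± 0.10.

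Enzymes that supply the NADPH used by aldo-keto reductases were partly higher. The test called 6 of the 12 higher and 1 lower, with 5 not called and a median log2 value of 0.095. The malic enzyme gene ME1 rose to 297 ± 2.75 CPM in DHT+WBM against 169 ± 4.49 CPM in DHT (log2 fold change 0.81). MTHFD1, an enzyme of folate metabolism, fell by 0.49 on the log2 scale. Without DHT replicate 1 the list had 2 lower members.

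The gene of NRF2 itself, NFE2L2, rose to 152 ± 1.46 CPM in DHT+WBM against 127 ± 4.41 CPM in DHT, a log2 fold change of 0.26 ± 0.04. Among the 9 genes listed for NRF2, its partners and its inhibitors, 5 were higher, 1 was lower and 3 had no call, and their median log2 value was 0.12. SQSTM1, an adaptor that binds the NRF2 inhibitor KEAP1, rose to 1431 ± 52.0 CPM in DHT+WBM against 645 ± 29.8 CPM in DHT (log2 fold change 1.15). The partner MAFG had a log2 fold change of 0.36 ± 0.05, its relative MAFK fell by 0.24, and KEAP1 did not pass the test, at 0.03.

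Enzymes of polyol, glucuronate and aldehyde handling were divided. Called higher were 5 of the 12, called lower 4, and not called 3. The median log2 value of the list was 0.016. Of the 5, ALDH3A1, at 3.81 CPM in DHT+WBM and 0.308 CPM in DHT, passed the filter through its DHT+WBM counts alone. The fatty aldehyde dehydrogenase ALDH3A2 rose to 394 ± 4.51 CPM in DHT+WBM against 229 ± 9.03 CPM in DHT. SORD, which oxidises the sorbitol made by AKR1B1, fell by 0.24 on the log2 scale, and GLO1, which clears methylglyoxal, by 0.33. The retinal dehydrogenases ALDH1A3 and ALDH1A1 fell by 0.49 and 0.81.

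**Figure D4:**
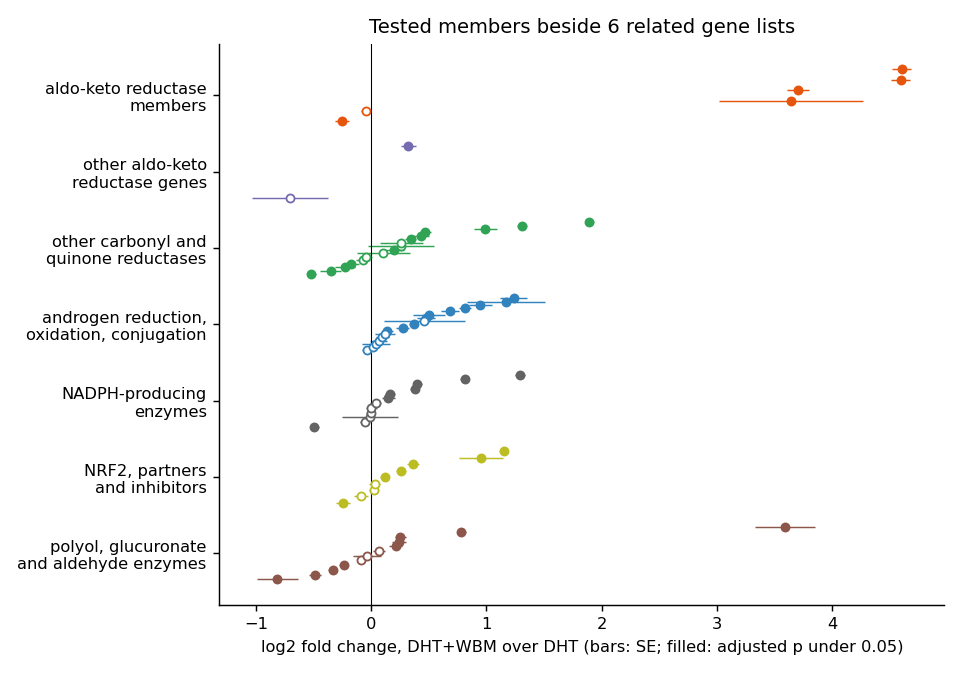
Log2 fold change of DHT+WBM over DHT (x axis, bars are SE) for the 6 members that passed the filter and for every tested gene of 6 related lists (rows); filled points passed the test at an adjusted p of 0.05 and open points did not. AKR1C1, AKR1C2, AKR1C3 and AKR1B10 lie between 3.64 and 4.61, and of the list genes only ALDH3A1, at 3.59, lies near them.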

How the data were processed

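For 6 libraries the table the authors deposited holds unnormalized whole-number counts of reads for every gene, beside gene coordinates and lengths. The submitters' processing notes list hg19 and, with neither role nor order, the tools HTSeq 0.6.0, STAR 2.6.0, bcl2fastq 2.18.0.12 and edgeR 3.28.1. No source used here gives the annotation, the strand setting or the treatment of reads with several matches.

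Groups came from the sample titles. The whole table was fitted with edgeR 4.0.16 (R 4.3.3). Low genes were removed by filterByExpr (minimum count 10 in at least 3 libraries, minimum total 15), libraries were scaled by TMM, and the remaining genes were tested by the quasi-likelihood F-test, DHT+WBM over DHT, two-sided, with Benjamini-Hochberg adjustment over all 13466 tested genes and a threshold of 0.05. The standard error is the log2 fold change divided by the square root of F. Sums of paralogs replaced their members in the table before filter and fit. CPM values use the TMM-scaled library sizes. Ratios of low counts carry exact conditional binomial 95% intervals, for counting error only. The code was tested on simulated data.

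Members and lists were chosen with earlier results of these data known. Of each list, the text names the 3 genes with the smallest adjusted p at a mean of at least 5 CPM and those called against the list's main direction. Further genes are named as examples, after their values were seen, and a gene that the rule names is not reported here. Sequences were compared with Biopython 1.88. Alternatives were RLE and upper-quartile factors, library totals, no filter, a 1 CPM filter, DESeq2 1.42.0, limma-voom (limma 3.58.1), a stricter adjusted p of 0.01, the replicate number as a block, and each library left out.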

Additional observations from a re-analysis of the deposited data

How the results depend on the processing

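Every rise or fall called for AKR1C1, AKR1C2, AKR1C3 and AKR7A2 kept its direction and its call under all 15 alternatives. AKR1B10 and the AKR1B sum were called under the 14 that could be fitted, but both entered the test through their DHT+WBM counts alone and neither passed a filter of 1 CPM in 3 libraries, so this says nothing of stability. The summed AKR1C log2 fold change lay between 4.28 and 4.42. AKR1A1 reversed from -0.05 to 0.0015 with library totals alone (edgeR adjusted p = 0.978), and was not called under any alternative. The number of members called was 4 with the 1 CPM filter and 5 in the fit reported. It was 6 without a filter or without DHT replicate 1, 2 or 3 or DHT+WBM replicate 2, where AKR1B1 was called as well. With a library left out AKR1B1 passed the filter through its DHT+WBM counts alone, so these added calls say nothing of stability. AKR1B10 had a log2 fold change of 3.11 to 6.81 with libraries left out, the highest without DHT replicate 1, where the other DHT libraries hold no read and the fitted value depends on the prior count. The AKR1C3 share differed by -11.2 to -13.6 percentage points over the 8 settings run for it, among them shares per kb and each library left out. Upper-quartile factors moved the split of all calls to 56.5% higher and library totals to 59.4%, against 50.1%, with the median gene at 0.03 and 0.05.

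Whether the replicate numbers pair the libraries was not settled. Same-numbered libraries had correlations of 0.0498, 0.0374 and 0.0192 between their deviations from the group means, and differently numbered ones -0.0864 to 0.0465. DHT+WBM replicates 1 and 2 correlated best with the DHT library of the same number, and DHT+WBM replicate 3 with DHT replicate 2. With 3 libraries per group, deviations from the means cannot decide this. With the replicate block 4079 genes were higher and 4030 lower, the AKR1C sum had a log2 fold change of 4.34 and no member's call changed. At these depths AKR1C4, AKR1B15 and AKR7A3 allow no statement on change.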

Other observations

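Genes around the AKR1C locus did not share its rise by the test. Of the genes other than the members within 500 kb of the AKR1C1 to AKR1C4 interval on chromosome 10 (hg19), 3 passed the filter. NET1, at chr10:5454514-5501019, was at 83.9 CPM in DHT+WBM and 102 CPM in DHT, -0.28 ± 0.05 on the log2 scale (edgeR adjusted p = 1.62e-06). FAM208B was at 206 CPM in DHT+WBM and 239.5 CPM in DHT, -0.22 ± 0.04 on the log2 scale (edgeR adjusted p = 3.39e-05). ASB13 had a log2 fold change of 0.10 ± 0.06 and did not pass the test (edgeR adjusted p = 0.106). The window was chosen after the values were seen. Around AKR1A1 the highest log2 fold change was that of PRDX1, a peroxiredoxin that removes peroxides, which was at 1910 CPM in DHT+WBM and 1096 CPM in DHT, 0.80 ± 0.04 on the log2 scale (edgeR adjusted p = 2.35e-20). The lowest there was that of CCDC163, at -1.91 ± 0.21. Near the AKR1B genes the highest was that of AGBL3, at 1.61 CPM in DHT+WBM and 0.977 CPM in DHT, with 0.72 ± 0.24 (edgeR adjusted p = 0.0101), and the lowest that of EXOC4, at -0.24 ± 0.05. Near the AKR7A genes log2 fold changes ran from -0.55 ± 0.06 for ALDH4A1 to 0.47 ± 0.07 for UBR4.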
